A study of Mus musculus with 3 samples.

Results

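The cytosolic ribosomal protein genes encode the protein part of the ribosome that works outside the mitochondria, and the accessibility of their promoters was described here in 3 mouse ATAC-seq libraries. Members were the protein-coding genes of the RefSeq table for GRCm38.p6, the build named mm10, whose symbol starts with Rpl or Rps and a digit, together with Rplp0, Rplp1 and Rplp2. The S6 kinase genes (Rps6k) were left out, because they encode kinases. The rule gave 90 genes of the 21896 protein-coding genes in the table. Of these, 76 encode core ribosomal proteins, 46 of the large subunit and 30 of the small subunit. A further 13 are paralogs or retrocopies, which are copies made from messenger RNA, and 1, Rps19bp1, encodes a protein named for binding Rps19. The members lie on 19 chromosomes, with 14 on chromosome 7 and 4 on the X chromosome.

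The study compared callosal projection neurons (CPN), which connect the cerebral hemispheres, with corticospinal motor neurons (CSMN), which project to the spinal cord, and its title concerns a microRNA cluster downstream of Fezf2. CPN were represented by 2 libraries (CPN 1 and CPN 2) and CSMN by 1, each from FACS-sorted viable mouse brain cells whose nuclei were incubated with a transposase that inserts into open DNA. The sources used here do not give the age, strain, genotype or treatment of the mice, and nothing in the labels says whether animals were pooled. With 1 CSMN library the cell types were not tested against each other, and values are set side by side with the difference between the CPN libraries.

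Ribosomal proteins are needed in near equal numbers in every cell, and their genes are housekeeping genes, many of which host small nucleolar RNAs in their introns. Their transcripts typically begin with a cytidine followed by a run of pyrimidines, the 5′ terminal oligopyrimidine (TOP) tract, through which the mTOR pathway controls their translation. The same letters lie at the transcription start in the DNA, in the place of the usual initiator, and ETS-family factors such as GABPA bind many of these promoters. Neurons carry ribosomes into dendrites and axons as well as the cell body.

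Some of the reference promoters show these sequence features, and the shares that do are given further on. The lines below give 100 bases before and 20 bases from the first listed transcription start, read 5′ to 3′ on the strand of the gene, from RefSeq on GRCm38.p6. Capitals mark a run of at least 5 pyrimidines that begins with C within 10 bases of the start, the ETS letters CCGGAA or their complement, and a palindrome of 10 bases, TCTCG followed by its reverse complement. The first set holds core genes whose start lies in such a run or whose promoter holds the palindrome, and the genes were picked after the values were seen.
Rps6 chr4:86857348-86857467 reverse strand: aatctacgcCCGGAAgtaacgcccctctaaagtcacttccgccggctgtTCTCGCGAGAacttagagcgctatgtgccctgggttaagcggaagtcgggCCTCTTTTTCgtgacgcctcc
Rpl38 chr11:114668480-114668599 forward strand: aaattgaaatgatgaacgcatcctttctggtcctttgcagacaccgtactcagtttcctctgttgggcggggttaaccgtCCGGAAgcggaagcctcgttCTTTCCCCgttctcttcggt
Rps15a chr7:118116128-118116247 reverse strand: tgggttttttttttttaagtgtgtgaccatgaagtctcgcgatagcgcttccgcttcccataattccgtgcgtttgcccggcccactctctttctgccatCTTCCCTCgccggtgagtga
Rps27 chr3:90213629-90213748 reverse strand: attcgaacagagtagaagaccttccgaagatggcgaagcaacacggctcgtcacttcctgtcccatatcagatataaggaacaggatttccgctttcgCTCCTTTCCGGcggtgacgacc
Rpl12 chr2:32961612-32961731 forward strand: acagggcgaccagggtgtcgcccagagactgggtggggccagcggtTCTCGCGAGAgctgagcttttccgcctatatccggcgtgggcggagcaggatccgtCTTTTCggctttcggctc
Rps19 chr7:24884492-24884611 forward strand: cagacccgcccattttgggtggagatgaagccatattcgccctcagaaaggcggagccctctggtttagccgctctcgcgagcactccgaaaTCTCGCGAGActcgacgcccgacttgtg
Rps6, a small subunit protein phosphorylated downstream of mTOR, holds all 3 features in these 120 bases. In Rpl38 and Rps15a the listed start is the first base of an 8-base run.

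The next set holds the genes at which the CSMN library and the CPN libraries differed most in the lower direction, which are described further on.
Rps4x chrX:102189372-102189491 reverse strand: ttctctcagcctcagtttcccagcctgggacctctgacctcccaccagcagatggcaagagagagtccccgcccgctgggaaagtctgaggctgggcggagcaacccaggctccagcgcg
Rps16 chr7:28350589-28350708 forward strand: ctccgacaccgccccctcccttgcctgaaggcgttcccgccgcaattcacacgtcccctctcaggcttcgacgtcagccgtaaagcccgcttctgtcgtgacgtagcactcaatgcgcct
Rpl14 chr9:120571417-120571536 forward strand: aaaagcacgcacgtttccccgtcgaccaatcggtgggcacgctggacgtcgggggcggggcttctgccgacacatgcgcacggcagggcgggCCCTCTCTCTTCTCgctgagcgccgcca
Rpl6 chr5:121204401-121204520 forward strand: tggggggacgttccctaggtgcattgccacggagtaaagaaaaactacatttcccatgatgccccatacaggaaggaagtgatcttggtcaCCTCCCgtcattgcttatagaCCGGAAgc
Rpl11 chr4:136053374-136053493 reverse strand: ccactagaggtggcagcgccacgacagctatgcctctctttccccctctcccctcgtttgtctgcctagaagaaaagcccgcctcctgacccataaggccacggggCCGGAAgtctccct
Of these 5 promoters, Rpl14 has a run of 14 pyrimidines across its start and Rpl6 a run of 6 before it. Rps4x, Rps16 and Rpl11 have no such run within 10 bases of the start that was listed.

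The last set holds Rps2, a core gene whose listed start is not at an end of its annotated gene, and 3 copies with no peak in any library.
Rps2 chr17:24719963-24720082 forward strand: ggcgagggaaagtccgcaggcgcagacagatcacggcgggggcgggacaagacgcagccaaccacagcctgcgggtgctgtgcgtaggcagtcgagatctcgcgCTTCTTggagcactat
Rpl10l chr12:66284382-66284501 reverse strand: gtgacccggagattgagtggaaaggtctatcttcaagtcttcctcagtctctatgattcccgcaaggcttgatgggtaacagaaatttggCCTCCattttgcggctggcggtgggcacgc
Rpl32l chr10:20208339-20208458 forward strand: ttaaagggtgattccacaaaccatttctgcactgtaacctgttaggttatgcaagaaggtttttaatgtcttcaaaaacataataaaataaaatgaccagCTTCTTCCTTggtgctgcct
Rps27rt chr9:114982720-114982839 reverse strand: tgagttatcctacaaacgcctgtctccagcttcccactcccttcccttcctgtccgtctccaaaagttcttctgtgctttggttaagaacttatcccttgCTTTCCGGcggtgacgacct
Rps27rt, a copy of Rps27, shares with it an unbroken stretch of 38 bases that begins at its own start base. Before the start, the longest stretch shared by the pair was 10 bases. The retrocopy thus has the letters of the Rps27 transcript from its first bases and other letters upstream.

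The deposited lists held 134018 peaks in CPN 1, 158779 in CPN 2 and 98067 in CSMN. The depth behind each peak is unknown, as the sources used here give no read totals, and a missing peak means only that none was called. Each peak carries a fold enrichment at its summit, the authors' value, whose median over a list was 3.82, 3.68 and 2.86. All 4 of the listed CSMN markers had a peak within 1 kb of a gene end in every library. The excitatory neuron list had 4, 5 and 4 of its 5 genes with such a peak in CPN 1, CPN 2 and CSMN, Rbfox3 lacking one in CSMN. All 4 interneuron markers and all 3 endothelial markers had one in every library, and the astrocyte, oligodendrocyte and microglia lists had 1 or 2 of 3. Peak presence at these genes did not separate the cell types, and how pure each sort was could not be read from it.

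A member was counted as having a gene-end peak when a peak lay within 1 kb of either end of its annotated gene. Such a peak was found for 83 of 90 members in CPN 1 (92.2%), 82 in CPN 2 (91.1%) and 83 in CSMN (92.2%). Among all protein-coding genes the shares were 69.2%, 70.2% and 66.6%. All 3 libraries had one at 82 members, beside 64.1% of all genes. No library had one at 7 members, beside 26.6% of all genes. In the core, 74 of 76 genes had one in every library (97.4%, Wilson 95% interval 90.9 to 99.3%, which like all intervals here covers counting error only). The count of members with a peak in CPN 1 and CPN 2 but not in CSMN was 0, beside 3.33% of all genes, and the count with a peak in CSMN alone was 0, beside 1.41%. With 90 members, a count of 0 allows shares of up to 4.09% (Wilson), so neither is below the share of all genes beyond counting error.

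The 2 core genes without a gene-end peak each had a strong peak inside the gene. Rps2, which encodes a protein of the small subunit, spans chr17:24718121-24721927 in the table, and its listed start at 24720063 lies 1942 bp inside the nearer end. The folds of a peak over that start were 14.8, 17 and 7.08 in CPN 1, CPN 2 and CSMN, and its widths 853, 703 and 693 bp. It ranked above 94.6%, 96.6% and 88.6% of the peaks of its list. Rpl17, of the large subunit, had a peak with a fold of 19.4, 21.4 and 8.42 whose summit lay 1512, 1505 and 1570 bp from the nearer gene end. For both genes the rule of 1 kb from a gene end, and not the peak lists, left them without a peak.

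The other members without a gene-end peak were all copies. Rps27rt, Rpl32l, Rpl10l, Rpl39l and Rpl31-ps12 had none in any library. Rpl37rt had a weak peak over its listed start in CPN 1 (fold 3.12, 189 bp wide) and none in CPN 2. In CSMN it had a different weak peak (fold 2.26, 212 bp), with its summit at -680 bp from the start, negative being upstream. An end of Acads also lay within 1 kb of a peak of Rpl37rt. Copies with a peak fell at both extremes. Rpl22l1, the paralog of Rpl22, had folds of 26.4, 28.7 and 18.1 and stood above 99.72%, 99.87% and 99.73% of the peaks of its list. Rpl36al, a paralog of Rpl36a, had folds of 25.7, 23.9 and 16.1 at a peak that also lies at an end of Mgat2. Rps23rg1 had folds of 3.82, 4.38 and 3.21, close to the median peak in CPN 1 (percentile 49.62, with 61.48 in CPN 2 and 58.87 in CSMN). Rpl34-ps1 had folds of 7.51, 8.31 and 4.84.

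Among the remaining copies, Rps27l, the paralog of Rps27, had folds of 18.4, 19.7 and 9.48, and Rpl7l1 had 15.1, 21.2 and 7.98. The muscle paralog Rpl3l had folds of 14.0, 15.0 and 7.84, but that peak lay at its end beside Msrb1, 8688, 8688 and 8745 bp from its own listed start. Rps19bp1 had folds of 14.7, 15.0 and 6.73. Annotated ribosomal protein pseudogenes, which are not members, rarely had a peak. Of 309 such pseudogenes, 21 had a gene-end peak in CPN 1 (6.8%), 27 had one in CPN 2 (8.74%) and 17 had one in CSMN (5.5%), beside 9.97%, 12.3% and 10.5% of all 10442 pseudogenes. None of these 21, 27 and 17 pseudogene peaks was in the top 5% of its list. Of all pseudogenes with a peak, 10.5%, 9.61% and 8.51% were. With so few peaks a count of 0 shows little, and the difference was not tested.

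For ranking, each gene was given its gene-end peak with the highest fold, and the percentile is the share of the library's peaks below it. The core had median percentiles of 96.9, 97.4 and 94.7 in CPN 1, CPN 2 and CSMN, beside 92.6, 93.2 and 90.5 over all genes with a gene-end peak. The lists differ in length, so these values describe each list and show no change between libraries. The top 5% of the list held the peak of 55 members in CPN 1 (66.3%, beside 38.5% of all genes with a peak), 60 in CPN 2 (73.2%, beside 40.9%) and 38 in CSMN (45.8%, beside 30.8%). Small subunit genes had medians of 97.7, 97.8 and 96.8, and large subunit genes 96.8, 97.1 and 94. Mitochondrial ribosomal protein genes, a family with a peak at 76, 76 and 74 of its 78 members, had 95.9, 97.1 and 93.1. Ribosome biogenesis genes had 97.8, 97.9 and 95.2, and a list of translation factors and other TOP genes, such as Npm1 and Tpt1, had 97.3, 98.3 and 98.4. The medians of these lists were thus also above those of all genes.

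**Figure D1:**
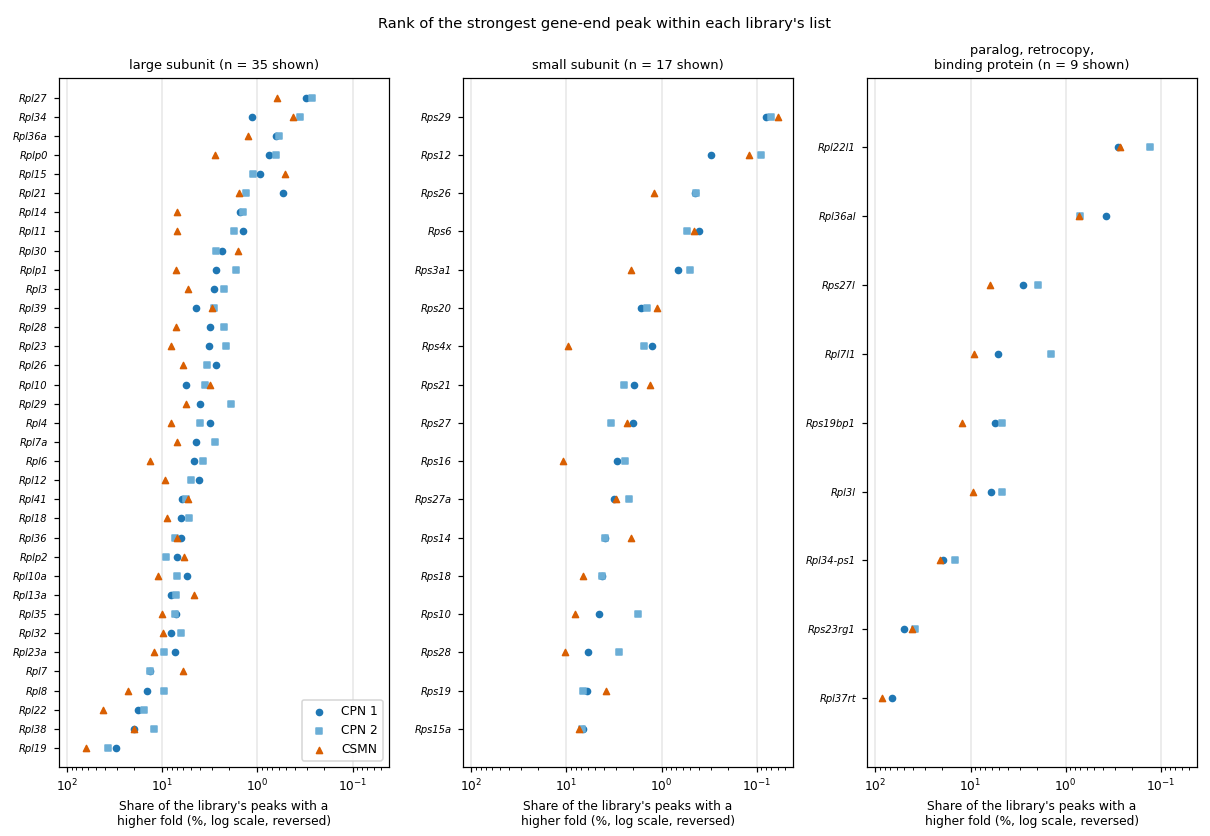
Share of the library's peaks with a higher fold than the member's strongest gene-end peak (%, log scale, reversed, so that the strongest lie to the right), one row for each of 61 members with a peak that the text names, for CPN 1 (circles), CPN 2 (squares) and CSMN (triangles). Most core genes shown lie to the right of 10%, Rps29 and Rps12 lie farthest right among small subunit genes, and Rpl19 and the copies Rps23rg1 and Rpl37rt lie far left.

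The strongest peaks belonged to genes of both subunits. Rps29, a small zinc-binding protein of the small subunit, had folds of 29.2, 30.8 and 20.9 and held rank 110, 109 and 58 in the lists. Rps12, also of the small subunit, had folds of 26.3, 30.0 and 19.5. Rpl27 and Rpl34, of the large subunit, had folds of 26.2, 26.8 and 16.4 and of 22.3, 25.9 and 17.2. All 4 were above 98% of peaks in every library.

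For several members of low rank the strongest gene-end peak was not the one at the listed start. Rpl19, of the large subunit, had the lowest rank in the core, with folds of 5.48, 4.43 and 2.58, at a peak near Cacnb1 with summits at -3951, -3917 and -4205 bp from its listed start, negative being upstream. The peak at that start had folds of 7.4, 6.42 and 4.94 and percentiles of 80.4, 78 and 79.5. Rpl22, whose listed start lies 1290 bp inside the annotated gene, had folds of 7.8, 7.99 and 3.19 at the gene's other end. At its start the folds were 24.7, 24.1 and 11.3, with percentiles of 99.5, 99.4 and 96.2. The strongest gene-end peak of Rpl4, Rpl18, Rpl41 and Rpl3l was also more than 1 kb from the listed start, which made 6 such members of the 69 with a listed start. Rpl38, by contrast, was low at its own start, with folds of 7.39, 9.23 and 5.02.

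A RefSeq promoter entry gave a transcription start for 69 members, 56 of them core genes. Members without an entry included Rpl32, Rpl8, Rpl30, Rpl7, Rps20, Rpl17, Rpl21, Rpl3, Rpl34-ps1, Rpl36, Rps27a, Rpl29, Rpl23a, Rplp1, Rps29 and Rps14. All 56 core genes had a peak within 1 kb of the start in every library (Wilson interval 93.6 to 100%), and in each the peak covered the start base. Among the 17491 genes with an entry, 67.7%, 68.7% and 65.7% had a peak within 1 kb of the start. Of those peaks 88.7%, 85.3% and 86.9% covered it. At these starts the lowest percentile of a core gene was 80.2 in CPN 1 (Rpl38), 78 in CPN 2 (Rpl19) and 72.5 in CSMN (Rpl4).

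The point of highest signal, the summit, lay just upstream of the start. Its median position, counted as negative upstream, was -38, -38.5 and -41 bp in CPN 1, CPN 2 and CSMN, beside -27, -30 and -23 bp over all genes. It fell within 100 bp of the start in 80.4%, 82.1% and 82.1% of the core genes, beside 54.7%, 56.8% and 52.5% of all genes with a peak at the start. The peak reached a median of 382, 329 and 369 bp upstream and 470, 403 and 464 bp downstream. Over all genes with a peak at the start the reaches were 375, 317 and 370 bp upstream and 525, 431 and 503 bp downstream. Upstream summits made up 75%, 78.6% and 75% of the core, beside 59.6%, 62.1% and 57% of all genes.

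The summits of the libraries lay closer together at core genes than at genes overall. The span of the 3 summits had a median of 28 bp in the core, with a largest value of 290 bp, beside a median of 47 bp over all genes. All 3 lay within 10 bp of each other at 23 core genes, a count not made over all genes. They lay within 50 bp of each other at 42 of 56 core genes (75%), beside 5861 of 11139 genes (52.6%). The median distance was 3.5 bp between CPN 1 and CPN 2, 8 bp between CPN 1 and CSMN and 6.5 bp between CPN 2 and CSMN. Over all genes these distances were 16, 25 and 32 bp. The core peaks also ranked higher within their lists than those of all genes, and the part of rank in the closer summits was not tested. In 6 core genes, a count also not made over all genes, a summit lay more than 200 bp from the start. In Rps26 it lay at -325 bp in every library and in Rpl13a at -220, -220 and -219 bp. In Rps19 it lay at -146 and -145 bp in the CPN libraries and at -322 bp in CSMN.

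**Figure D2:**
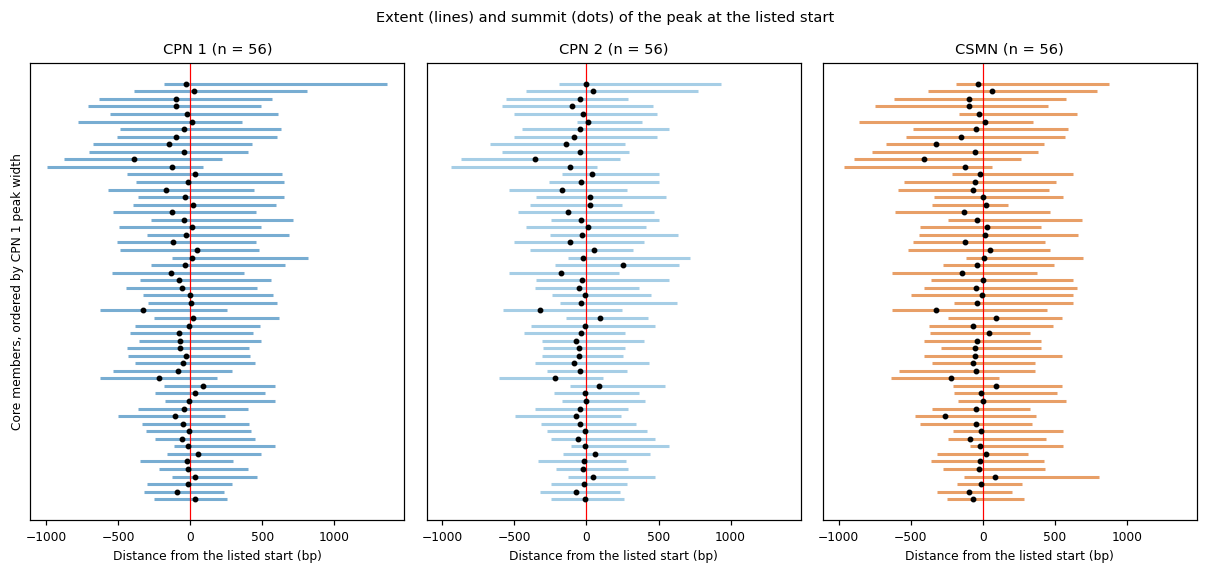
Peaks at the listed transcription start of the 56 core genes with a RefSeq entry, 1 line per gene from peak start to peak end, in bp from the start (red line, downstream to the right), with the summit as a dot, for CPN 1, CPN 2 and CSMN in the same gene order. Every line crosses the start, and most dots lie within 100 bp of it.

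Widths of the strongest gene-end peak were typical of genes at large. The core medians were 900, 748 and 848 bp in CPN 1, CPN 2 and CSMN, beside 914, 741 and 882 bp over all genes. The spread was narrow at the low side. Peaks wider than 500 bp were found at 79 of 83 members in CPN 1 (84.4% of all genes with a peak), 76 of 82 in CPN 2 (74.4%) and 78 of 83 in CSMN (81.8%). In the core the counts were 73, 71 and 72 of 74. CPN 1 peaks were wider than CPN 2 peaks at 72 of 82 members, beside 88.1% of all genes, so this difference between replicates ran through the whole lists.

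Some of the widest peaks also lay at the end of a neighbouring gene. Rpl7, of the large subunit, had the widest, 2237, 1688 and 2321 bp, reaching an end of Rdh10. Rpl36al had 1349, 1290 and 1503 bp, and Rpl7a, whose peak also lies at an end of Med22, had 1201, 1045 and 1203 bp. Rpl10a (1205, 1197 and 1176 bp) and Rpl39 (1204, 847 and 1194 bp) had wide peaks with no other protein-coding gene end within 1 kb. The narrowest were those of Rpl37rt, Rpl34-ps1 (271, 290 and 205 bp), the far-end peak of Rpl22 (377, 198 and 319 bp), Rps23rg1 (350, 269 and 381 bp) and Rpl23a (533, 489 and 516 bp).

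Of 83 members with a peak, 22 had the end of another protein-coding gene within 1 kb of it. Pairs such as Rpl12 and Lrsam1, Rps28 and Ndufa7, Rps18 and Vps52, and Rpl15 and Nkiras1 were of this kind, and a peak there cannot be assigned to 1 of the genes. A sole gene-end peak in every library was found at 63 of 82 members. In CPN 1, CPN 2 and CSMN taken singly it was found at 70 of 83, 66 of 82 and 71 of 83 members. Among all genes with a peak the counts were 11011 of 15151, 9732 of 15378 and 11240 of 14589. The counts of 22 and 63 were not computed over all genes.

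**Figure D3:**
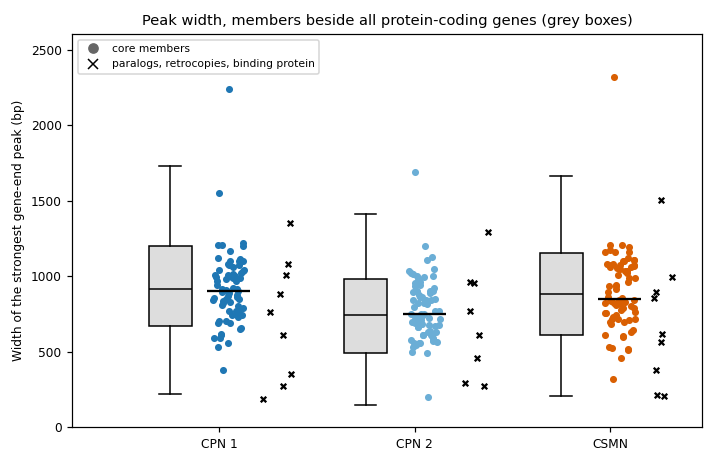
Width of the strongest gene-end peak (bp) in each library, for core members (points, black line at the median) and for paralogs, retrocopies and the binding protein (crosses), beside all protein-coding genes with a gene-end peak (grey boxes from the 25th to the 75th percentile, line at the median, whiskers from the 5th to the 95th). Core medians of 900, 748 and 848 bp lie near those of all genes, and the highest point in each library is Rpl7.

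To set CSMN beside CPN on a common scale, the strongest gene-end peak of each gene was ranked among the 14030 protein-coding genes with one in all 3 libraries, 82 members included. A member was called lower in CSMN when its percentile lay below both CPN values by more than the CPN 1 to CPN 2 gap plus 5 points, and higher by the mirror rule. By this rule 18 of 82 members were lower (22%, 14.4 to 32.1%), beside 15% of all genes, and 8 were higher (9.76%, 5.03 to 18.1%), beside 15.6% of all genes. Both intervals, which are for gene ends, include the share of all genes. At listed starts, which some members lack, 17 of 62 members were lower (14.9% of all genes) and 2 higher (15.8%). No interval was computed for the counts at listed starts. At gene ends with no margin, 40 members were below both CPN libraries (39.5% of all genes) and 30 above both (42.3%). The core medians were 72.3, 73.5 and 66.4 in CPN 1, CPN 2 and CSMN. The median over core genes of CSMN minus the mean of CPN was -1.72 points, beside 0.26 over all genes. The same median of CPN 1 minus CPN 2 was -0.292 points. For single core genes the CPN libraries differed by a median of 4.85 points in either direction, and CSMN differed from their mean by 9.02. Over all genes these medians were 4.13 and 7.35 points, so CSMN stood farther off there too.

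Some members differed by far more, though over all genes the differences ran from -81.8 to 85.4 points. Rps4x, the X-linked small subunit gene, stood at percentile 88.2 in CPN 1, 83.9 in CPN 2 and 47.5 in CSMN, a difference of -38.5 points. The authors' folds at its peak were 21.9, 20.9 and 7.72, and its width hardly differed, at 657, 605 and 632 bp. Rps16, of the small subunit, stood at 73.1, 75.1 and 43.4 (-30.7 points). Rpl14, of the large subunit, stood at 85.5, 85.0 and 58.1 (-27.1 points). Rpl6 stood at 60.8, 63.9 and 36.4 (-25.9 points), and Rpl11, a large subunit protein that also binds Mdm2, at 86.6, 81.6 and 58.5 (-25.5 points). At each of these 5 genes the CPN libraries lay within about 5 points of each other and CSMN lay well below both.

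The other members called lower were 11 core genes and the paralog and binding protein genes Rps27l (-15.5 points) and Rps19bp1 (-17.3 points). They included the P-stalk genes Rplp1 (74.9, 82.1 and 57.7) and Rplp0 (92.8, 93.2 and 81.1), whose proteins form the stalk that recruits elongation factors. The rest ran from Rpl23, at -20.5 points, to Rps3a1, at -8.6 points. Rpl22 was among them at its far-end peak (-13 points).

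The genes called higher included Rpl7, Rpl13a, Rps19, Rps14, Rpl41, Rpl30 and Rps20. Rpl7 stood at 28.6, 25.8 and 62.7 (35.5 points higher), with folds of 9.36, 8.75 and 9.64 at the wide peak it shares with Rdh10. Rpl13a, a large subunit gene that hosts small nucleolar RNAs, stood at 42.7, 43.7 and 69.8 (26.7 points). Rps19, the small subunit gene mutated in some Diamond-Blackfan anemia, stood at 52.2, 45.6 and 75 (26.1 points), and Rps14 at 66.0, 62.7 and 85.6 (21.2 points). Rpl41 was called at a peak beside Zc3h10 (14.7 points), and at its own listed start the difference was 2.43 points and was not called. Rplp2, the third P-stalk gene, stood at 47.7, 36.3 and 63.3 and was not called, because its CPN libraries differed by 11.5 points. Rpl7l1, at 57.9, 85.0 and 49.7, was not called for the same reason.

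**Figure D4:**
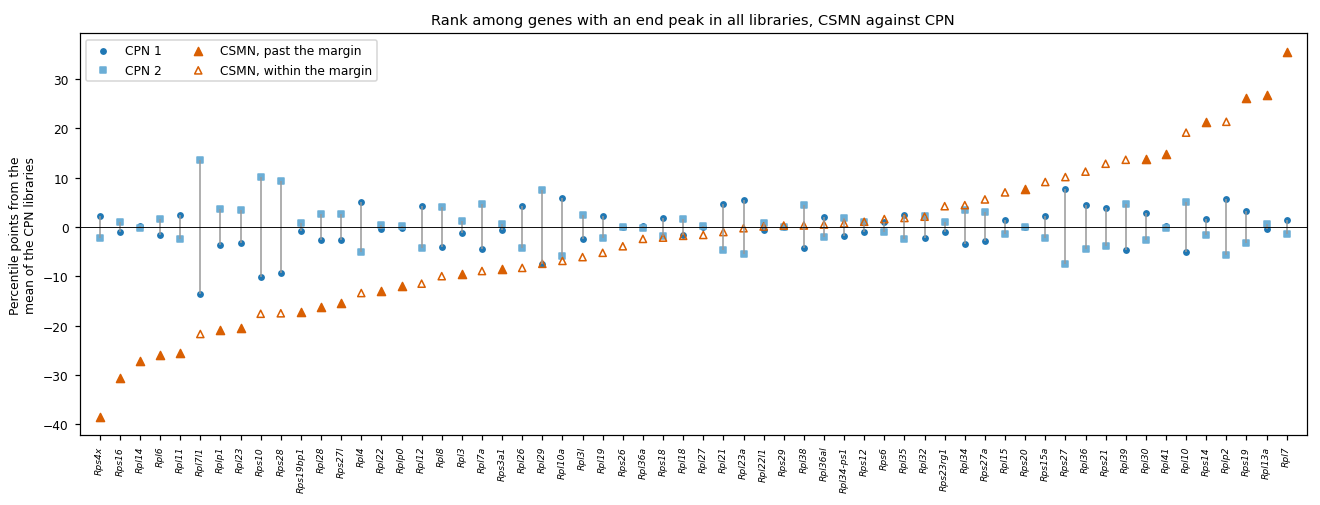
Percentile among the 14030 genes with a gene-end peak in all libraries, as points from the mean of CPN 1 and CPN 2, for 60 of the 82 members with a peak in all 3, those the text names, ordered by the CSMN value (triangles, filled where past the margin). Grey lines join CPN 1 (circles) and CPN 2 (squares), and the CSMN value ranges from -38.5 points at Rps4x to 35.5 points at Rpl7.

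The 4 X-linked members did not move together. Beside Rps4x, Rpl10 stood at 55.1, 65.1 and 79.2, Rpl39 at 61.9, 71.1 and 80, and Rpl36a at 94.0, 93.6 and 91.4, none of them called. Widths showed little of their own. CSMN peaks were narrower than both CPN peaks at 18 of 82 members, beside 25.8% of all genes, and wider than both at 32, beside 38.5% of all genes. Small subunit genes were wider at 15 of 29 (51.7%, 34.4 to 68.6%), an interval that includes the share of all genes.

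Related gene lists were set beside the members on the same scale. Of 74 mitochondrial ribosomal protein genes, 16 were lower (21.6%, 13.8 to 32.3%) and 5 higher in CSMN (6.76%, 2.92 to 14.9%). Of 26 ribosome biogenesis genes, 8 were lower (30.8%, 16.5 to 50%) and 4 higher (15.4%, 6.15 to 33.5%). The shares over all genes were 15% lower and 15.6% higher. The mitochondrial interval for higher lies below the share of all genes and the biogenesis interval for lower lies above it. Neither difference was tested. Of 14 translation factor and other TOP genes, 0 were lower and 6 higher (42.9%, 21.4 to 67.4%), an interval above the share of all genes, though the difference was not tested. They were Eif3f, Eif3e, Eef1a1, Eef1d, Tpt1 and Hnrnpa1, of which Eef1a1, the elongation factor that delivers tRNA, stood at 73, 69.3 and 91.2. Fau, Rpsa and Rack1, which encode core ribosomal proteins under symbols outside the rule, each had a gene-end peak in every library, and none of them was called in either direction. Rpsa stood at 78.8, 89.7 and 78.

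Motif letters were counted on both strands in each RefSeq promoter entry, 250 bases before and 50 from the start. CCGGAA, the ETS letters, occurred in 50% of the 56 core promoters (37.3 to 62.7%), beside 19.1% of all 17491 promoters and 56.5% of those of mitochondrial ribosomal proteins. The palindrome of TCTCG and its reverse complement occurred in 5 core promoters, those of Rpl12, Rpl26, Rps19, Rps28 and Rps6 (8.93%, 3.87 to 19.3%), beside 0.715% of all. In the 100 bases before the start alone, the ETS share was 26.8%, beside 9.55% of all promoters. GGGCGG, bound by SP factors, occurred in 58.9%, beside 46.3% of all, but in 30.4%, beside 33.6%, in those 100 bases. AAGATGGC, the YY1 letters, occurred in 4 of 56 (7.14%, 2.81 to 17%), beside 3.22% of all, a share inside that interval. CCAAT occurred in 30.4%, beside 39% of all, TATAAA in 8.93%, beside 13.3%, the E-box CACGTG in 8.93%, beside 7.9%, and the NRF1 palindrome, GCGCA followed by its reverse complement, in 1.79%, beside 1.32%. Core promoters held a median of 21 CpG pairs, beside 13 over all, at a GC content of 57.5% and 56.3%.

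The letters at the start itself also differed in frequency from those of promoters at large. In 12 core promoters the listed start base was a C that, with the bases after it, made at least 5 pyrimidines in a row (21.4%, 12.7 to 33.8%), beside 2.17% of all promoters and 0 of 69 mitochondrial ribosomal protein promoters. These were Rpl14, Rpl15, Rpl28, Rpl35, Rpl38, Rplp2, Rps10, Rps15a, Rps18, Rps21, Rps27 and Rps6. Allowing the run to begin within 10 bases of the start gave 55.4%, beside 31.2% of all promoters. Letters alone show no binding, and the first listed start may not be the one used in these neurons.

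**Figure D5:**
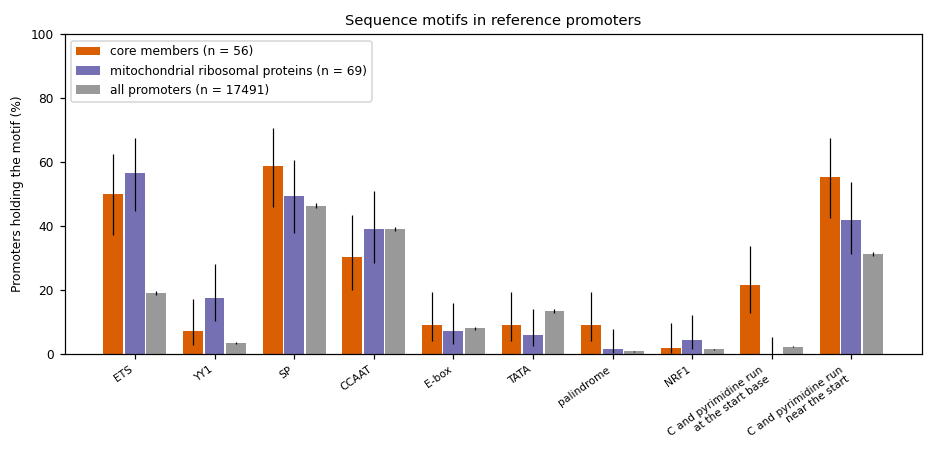
Share of reference promoters (%) that hold each motif, for the 56 core genes, the 69 mitochondrial ribosomal protein genes and all 17491 entries, with Wilson 95% intervals as lines. ETS letters are more common in both ribosomal families than in all promoters, while the run at the start base is found in 21.4% of core promoters and in none of the mitochondrial ones.

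Small nucleolar RNA genes lie inside 29 of the 76 core genes and number 56 in all. Of all protein-coding genes, 372 of 21896 (1.7%) hold one. Rpl4 holds 5, and Rpl7a and Rpl13a hold 4 each.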

How the data were processed

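ATAC-seq peak lists of 2 CPN libraries and 1 CSMN library were used as deposited. Build mm10 and the tools MACS2 2.2.7.1, BWA 0.7.17 and bedtools 2.29.2 are named, with no role, in the submitters' processing notes. Read filters, duplicate removal and the transposase shift, which could change peak edges and folds, are not given in the sources used here. Calling was taken to be per library, since the peak names of each list carry 1 library's name. Values in the deposited lists are the authors' score, summit fold, −log10 p, −log10 q (lowest 1.31, 1.31 and 1.3) and summit offset.

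Python 3.11.15 with pandas 2.3.3, numpy 2.4.6 and scipy 1.17.1 joined peaks to the RefSeq gene table by position, and matplotlib 3.10.9 drew the figures. Presence was checked with bedtools 2.31.1, with 0 genes differing, and the scripts were tested on simulated data. Gene ends stood for promoters because the table has no strand, and RefSeq promoter entries gave listed starts, the first where several were listed. Percentiles are the mean rank less 0.5 over the number of peaks or genes, in percent. Shares carry Wilson 95% intervals.

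Named genes were every member with no gene-end peak in a library, the 5 highest and lowest by median percentile, the 5 widest and narrowest, the 5 largest differences each way, and members that share a peak with another member or lie outside the core. Some genes that the rule names are not reported here. The members, the gene lists and the rules were chosen with earlier results of these data known. After the files were read, Rpl31-ps12, Rpl32l, Rpl37rt and Rps23rg1 were added to the copies. Alternatives varied the distance, peak threshold, list length, ranking, members, libraries and promoter window. The labels call the CPN libraries biological replicates, and no p-value was computed.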

Additional observations from a re-analysis of the deposited data

How the results depend on the processing

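No paired analysis was possible because CSMN had 1 library, the cell types share 1 replicate number and nothing was tested. Presence, at distances of 500 bp and 2 kb, with lists cut to 98067 peaks and with peaks at −log10 q of at least 5, stayed between 79 and 85 of 90 members. The median within-list percentile of members, 97.1 as the mean of the CPN libraries, became 95.7 with lists of equal length, 95.8 at −log10 q of at least 5 and 97.6 without members sharing a peak. In CSMN it was 94.4, 90.1 at −log10 q of at least 5 and 95.2 without members sharing a peak. Wider CSMN peaks numbered 32 of 82 members, and 20 of 61 without those sharing a peak. With peaks taken at listed starts, 62 of the 69 members with a start had one in every library. Of these, 17 in place of 18 were lower in CSMN (14.9% of all genes) and 2 in place of 8 higher (15.8%). No interval was computed for these counts. The median difference was -3.3 in place of -1.72 points. Rpl7, Rps14, Rpl30 and Rps20, called higher at a gene end, have no listed start. Alternatives chosen after seeing the data were peaks anywhere in the gene, where the median difference was -1.37 points, and a margin of 10 points, where 10 members were lower (8.47% of all genes) and 5 higher (8.51%). With 1 CPN library left out the gap is 0 by construction, and lower members numbered 33 to 34 (29.4% and 32% of all genes), higher ones 21 to 23 (33.6% without CPN 1 and 31.9% without CPN 2), wider ones 34 to 62 and narrower ones 19 to 49. Without CPN 1, 62 were wider (72.1% of all genes) and 19 narrower (27.6%), and without CPN 2, 34 were wider (40.4%) and 49 narrower (59.1%). Of 26 members called in rank, 14 kept their call in every alternative that gave them a value and 0 reversed. Alternatives that only leave members out cannot change a call. Leaving out a CPN library, which sets the gap to 0, can hardly end one, so these say little about how firm a call is. Rps4x, at -38.5 points, ranged from -40.7 to -36.1, and Rpl7, at 35.5 points, from 33.9 to 38.2. Only the margin of 10 points or, for Rpl41, the listed start ended a call. In only the 100 bases before the start, the core shares were 26.8% for ETS (9.55% of all promoters), 1.79% for YY1 (0.532%), 30.4% for SP (33.6%), 14.3% for CCAAT (21.8%), 1.79% for the E-box (3.49%), 1.79% for TATA (6.23%) and 0% for NRF1 letters (0.755%). For SP, E-box and NRF1 letters the core thus went from above to below all promoters. In both windows, however, the core interval for each includes the share of all promoters, so no change beyond counting error is shown. The YY1 interval also includes the share of all promoters in both windows. YY1 letters went from 4 to 1, E-box letters from 5 to 1 and NRF1 letters from 1 to 0 of 56 core promoters. Unknown depth limits every absent peak.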
